A study of Mus musculus with 38 samples.

Results

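The genes described here are 36 genes of glycolysis and of the response to low oxygen, chosen by name and matched by symbol to the Ensembl IDs of the deposited count tables, out of 55502 IDs in all. They fall into 4 roles: 2 hypoxia-inducible transcription factors, 15 glycolytic enzymes, 6 genes of sugar and lactate transport and of glycolytic control, and 13 genes known as targets of the hypoxia response. They were measured by bulk RNA sequencing in 38 libraries from organoids of mouse lung adenocarcinoma, tumour cultures kept in Matrigel with L-WRN conditioned media. The study removed the forkhead transcription factors Foxa1 and Foxa2 from tumour cells that express the lung lineage factor Nkx2-1. All organoids were of Mixed 129/B6 strain and carried KrasFSF-G12D, p53frt and Rosa-FSF-CreERT2, so vehicle controls carried them too. Organoids received ethanol vehicle or 2 uM 4-hydroxytamoxifen (4-OHT), which activates the Cre recombinase and deletes floxed sequence, for 72 hours. The sources used here do not state when RNA was taken.

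Lines 1027B, 1027D and 1292B were double-floxed (Foxa1flox and Foxa2flox), with 5 libraries for each treatment. Lines 1552A, 1552B and 1552C were Foxa1-floxed (6 libraries for each treatment), and lines 1267B and 1526C were Foxa2-floxed (4 libraries for each treatment). In a further experiment, line 1027B carried 1 of 2 hairpins, shNKX2-1 against Nkx2-1 or the scrambled control shScramble, with 2 libraries for each hairpin and treatment. Each line came from 1 tumour, and whether repeat libraries of a line came from separate cultures is not stated, so p-values measure the spread between these libraries, which may be technical. No line without a floxed Foxa gene was treated, so effects of 4-OHT or of Cre itself and effects of gene loss cannot be told apart.

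As background, glycolysis breaks glucose down to pyruvate, and lactate dehydrogenase and the lactate exporter carry the excess out of the cell. When oxygen is short, the prolyl hydroxylases that mark the hypoxia-inducible factors for destruction stop working, and the factors Hif1a and Epas1 (also called HIF-2 alpha) accumulate and bind response elements near their target genes. This control acts mainly on protein, so the factors' RNA need not follow the activity of their targets.

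The core of the hypoxia response element was searched for as ACGTG or GCGTG on both strands of the 250 bases before each RefSeq start site (GRCm38.p6), where 32 of the 36 genes had an entry. The run CACGTG holds the core on both strands and was counted on each. Of 46 start sites of these genes, 36 (78.3%) held at least 1 core, against 38.6% of all 32851 start sites in the table. With ACGTG alone the shares were 50% and 16.6%. The share with ACGTG was 75% of 12 start sites of the hypoxia targets, 57.1% of 7 start sites of the transport and control genes and 34.6% of 26 start sites of the glycolytic enzymes. The sets of start sites were not matched for base composition, and some start sites belong to the same gene. Matches are a description of the sequence and were not tested for binding. The 4 windows below are printed because Slc16a3 was called in 2 comparisons and the other genes had lower mean CPM with 4-OHT than with vehicle in each of the 8 lines. These other genes were chosen after their values were seen, from 16 members lower in all 8 lines. Only windows with a core could be printed, so the presence of cores in them follows from the choice. Each is written 5′ to 3′ on the gene's strand, in lower case with the cores in capitals.
Slc16a3, chr11:120948817-120949066, plus strand: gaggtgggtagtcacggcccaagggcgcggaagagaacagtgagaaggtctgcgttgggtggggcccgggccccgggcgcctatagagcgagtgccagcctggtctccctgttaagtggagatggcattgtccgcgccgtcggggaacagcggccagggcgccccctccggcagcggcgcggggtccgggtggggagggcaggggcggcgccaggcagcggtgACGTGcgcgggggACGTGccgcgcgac
Pgk1, chrX:106186850-106187099, plus strand: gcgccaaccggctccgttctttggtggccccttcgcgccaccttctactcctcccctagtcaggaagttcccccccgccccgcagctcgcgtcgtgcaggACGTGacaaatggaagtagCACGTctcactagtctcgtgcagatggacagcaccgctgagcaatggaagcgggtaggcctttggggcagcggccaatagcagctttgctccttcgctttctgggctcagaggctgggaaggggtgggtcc
Ldha, chr7:46845554-46845803, plus strand: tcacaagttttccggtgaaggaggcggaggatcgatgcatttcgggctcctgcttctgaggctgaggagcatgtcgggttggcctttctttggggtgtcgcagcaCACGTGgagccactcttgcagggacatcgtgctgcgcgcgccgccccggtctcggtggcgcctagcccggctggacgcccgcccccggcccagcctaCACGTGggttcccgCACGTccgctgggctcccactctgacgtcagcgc
Bnip3, chr7:138909507-138909756, minus strand: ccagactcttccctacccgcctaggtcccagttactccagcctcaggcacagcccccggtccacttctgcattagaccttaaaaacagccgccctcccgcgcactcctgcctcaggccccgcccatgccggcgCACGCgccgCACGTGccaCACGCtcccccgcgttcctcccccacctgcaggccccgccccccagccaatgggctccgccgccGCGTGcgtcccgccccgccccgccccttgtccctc
Slc16a3 (2 cores, both ACGTG on the printed strand) encodes the lactate exporter, Pgk1 (2 cores, 1 on each strand) the enzyme that makes the first ATP of glycolysis, Ldha (5 cores) lactate dehydrogenase and Bnip3 (5 cores) a mitophagy receptor. Within the Slc16a3 and Bnip3 windows, 14 and 13 bases lie in an annotated exon of GENCODE M21. The first start site of Vegfa, and the only one listed for Car12, held no core in this window. The second start site of Vegfa held 2, but 218 bases of its window lie in an annotated exon and it is not printed.

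Library totals, in units of 1e6 counts, were 18.3 to 32.0 for double-floxed, 18.5 to 33.2 for single-floxed and 13.6 to 16.3 for hairpin libraries. With 4-OHT, Foxa2 had a log2 change of -4.49 in double-floxed organoids (edgeR adjusted p = 0.00151) and of -5.11 in Foxa2-floxed organoids (adjusted p = 3.55e-09). Foxa1 had a log2 change of -1.80 in double-floxed (adjusted p = 0.0284) and of -1.92 in Foxa1-floxed organoids (adjusted p = 6.08e-07). In the hairpin libraries Foxa2 had log2 changes of -5.09 (shScramble, adjusted p = 0.00227) and -6.04 (shNKX2-1, adjusted p = 0.00175). Foxa1 was not called there (adjusted p = 0.469 and 0.236), at 22.1 to 34.1 CPM (counts scaled to 1e6 per library with edgeR's TMM factors) with vehicle and 18.5 to 21.9 CPM with 4-OHT. Epithelial markers summed to 4445 to 14835 CPM in all libraries, while 6 fibroblast markers summed to at most 4.93, 5 endothelial markers to at most 7.42 and 5 leukocyte markers to at most 46.8 CPM. The second shNKX2-1 4-OHT library had 11.7% mitochondrial counts, against 1.09% to 4.30% in the other libraries, so values without it are given beside the results it touches. In bulk samples, fewer cells of a type and less RNA per cell cannot be told apart.

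Levels between genes were compared per kilobase of exon (RPKM, which is CPM divided by exon length) in the 15 vehicle libraries without a hairpin, whose tables were scaled separately. Ldha was highest with a median of 780 RPKM (range 465 to 1372). Pkm, pyruvate kinase, followed at 708 (491 to 1177), then Aldoa, the main aldolase, at 645 (276 to 1472) and Tpi1, triose phosphate isomerase, at 516 (204 to 803). The ranges of these 4 enzymes overlap, so their order is not separated by the spread between libraries. Among hypoxia targets Ndrg1, a stress-induced gene of differentiation, had a median of 170.0, Vegfa, the angiogenic growth factor, 146 and Bnip3 128 RPKM. The lowest medians belonged to Eno2, the neuronal enolase (0.0695), Car12 (0.309) and Car9 (0.414), the membrane carbonic anhydrases, and Slc2a3, the glucose transporter GLUT3 (0.335). Car9, widely used as a hypoxia marker, gave at most 1.79 RPKM in these libraries. Hif1a, the broadly expressed factor, had a median of 46.3 (34.4 to 106) and Epas1 of 16.1 (0.892 to 30.5) RPKM.

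Isozymes were used unequally, given as shares of the summed RPKM of a family over all 38 libraries. Each family holds the members among the 36 alone, so other isozymes, such as Eno3 and Hkdc1, are not in the shares. Aldoa made up 96.3% ± 2.12 (SD) of Aldoa and Aldoc together, and Eno1 at least 99.8% of Eno1 and Eno2. Hk1 and Hk2 divided their sum between Hk1, at 48.2% ± 9.62, and the inducible Hk2, at 51.8% ± 9.62. Of the 3 phosphofructokinases Pfkl supplied 61.8% ± 6.87, Pfkm 23.1% ± 9.14 and Pfkp, the platelet type, 15.1% ± 8.84. Slc2a1, the widespread glucose transporter GLUT1, supplied 91.0% ± 11.2 of Slc2a1 and Slc2a3 together, and Slc2a3 reached at most 39.7%. That maximum came from a library of line 1552A. Slc2a3 varied between lines: with vehicle and no hairpin it was 349 and 397 CPM in 1552A, 194 and 245 in 1526C, 115 in 1292B and 40.02 and 67.5 in 1552C, but at most 2.43 CPM in 1027B, 1027D, 1267B and 1552B. Line 1027B carrying a hairpin had 15.3 to 58.8 CPM with vehicle, so its level also differed between the 2 experiments on 1 line, whose tables were scaled separately. Epas1 also followed the line, with 5.11 and 4.99 CPM in the vehicle libraries of 1027B against 153 and 171 in those of 1027D.

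Repeat libraries of 1 line and treatment differed widely in these genes. For 18 pairs of libraries that share line, treatment and hairpin, the median absolute log2 difference over the members was larger than that over all genes tested in 16 pairs, with medians over pairs of 0.53 and 0.26. The widest gap was between the shScramble vehicle libraries, where the second was higher by a median of 1.49 and 24 of 35 members differed by more than 2-fold, against 4.61% of all genes. In line 1027B with 4-OHT, 30 of 36 members differed by more than 2-fold (22.9% of all genes), with replicate 4 higher than replicate 1 by a median of 1.37. In line 1526C with vehicle, 20 of 36 members did (3.48% of all genes), and replicate 4 was higher by a median of 1.22. In line 1552A replicate 2 was higher than replicate 1 by a median of 0.81 with vehicle and 1.03 with 4-OHT. The narrowest gap, a median absolute difference of 0.18, was between the shScramble 4-OHT libraries.

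Pgk1 shows the spread: its 2 vehicle libraries of 1526C had 628 and 1892 CPM, and those of shScramble had 447 and 1732 CPM. Bnip3 had 66.5 and 438 CPM in the same 1526C libraries and 59.3 and 368 CPM in those of shScramble. Adm, the vasodilator peptide adrenomedullin, had 0.0820 and 11.1 CPM in 1526C with vehicle. These libraries differ severalfold although line and treatment are the same. Mean log2 CPM of the glycolytic enzymes and of the hypoxia targets moved in the same direction in 17 of the 18 pairs, and those of all 3 roles (with transport and control) in 16. Gapdh, a glycolytic enzyme outside the list and a common reference gene, moved in the direction of the members' median in 16 pairs, for example 2287 and 7175 CPM in the shScramble vehicle libraries. The summed CPM of 8 proliferation genes moved in the direction opposite to the members in 14 of the 18 pairs. In 1552A with vehicle it was 1765 CPM in replicate 1 and 783 in replicate 2, where the members were higher, and in 1027B with 4-OHT it was 1554 CPM in replicate 1 and 877 in replicate 4. The part of growth state in the differences was not tested, and the direction of these counts was noticed after the values were seen.

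**Figure D1:**
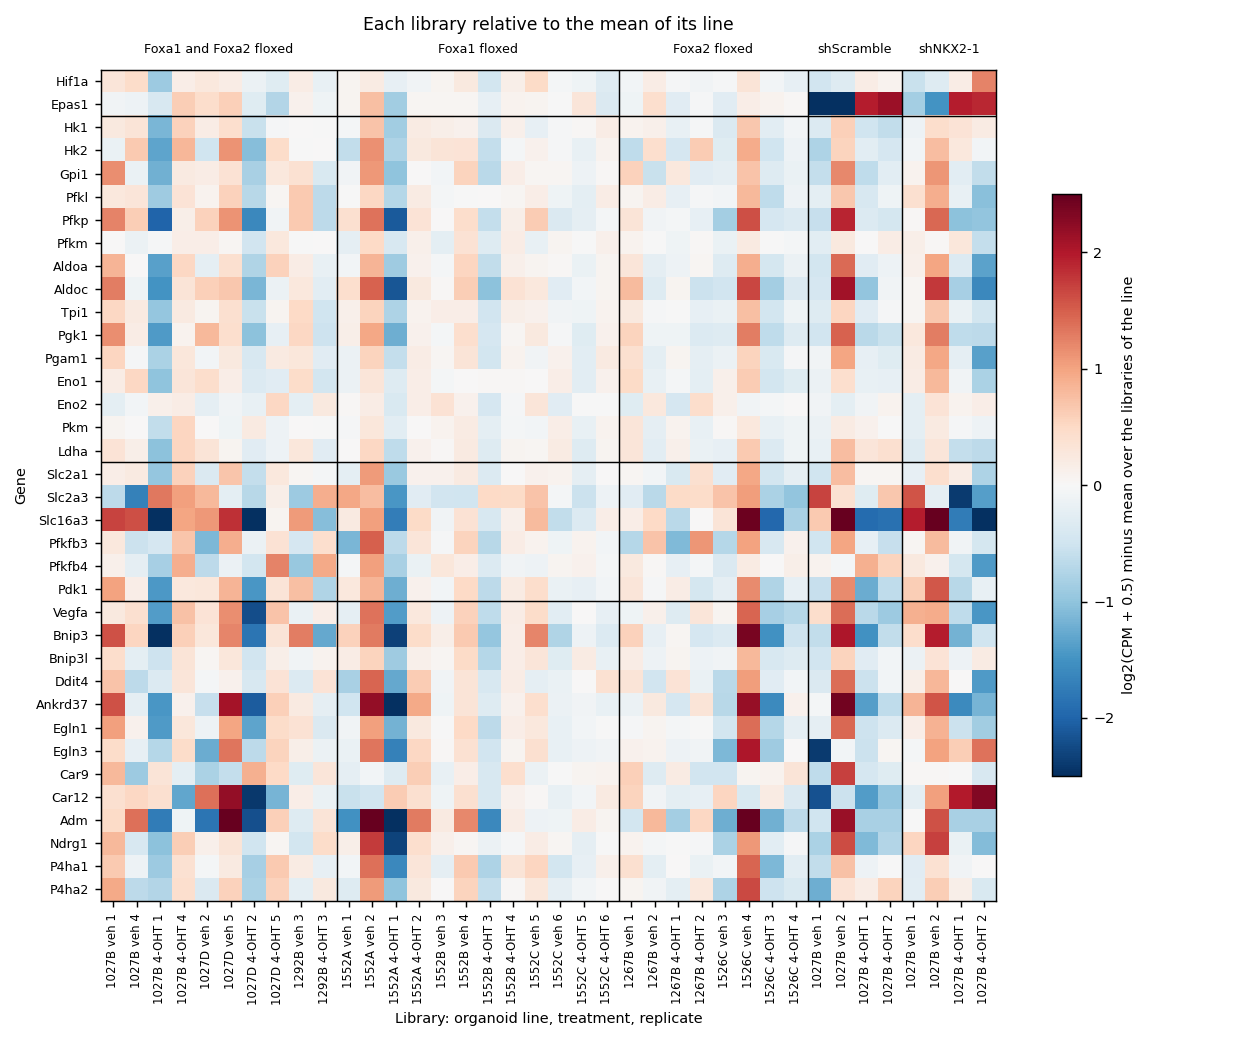
Heatmap of the 36 members (rows, by role) in all 38 libraries (columns), coloured by log2(CPM + 0.5) minus the mean over the libraries of the line; the 8 hairpin libraries were centred together. Whole columns are red or blue, such as 1526C vehicle replicate 4 and shScramble vehicle replicate 2 (higher) or 1027B 4-OHT replicate 1 (lower), and the Epas1 row separates vehicle from 4-OHT in the hairpin libraries.

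**Figure D2:**
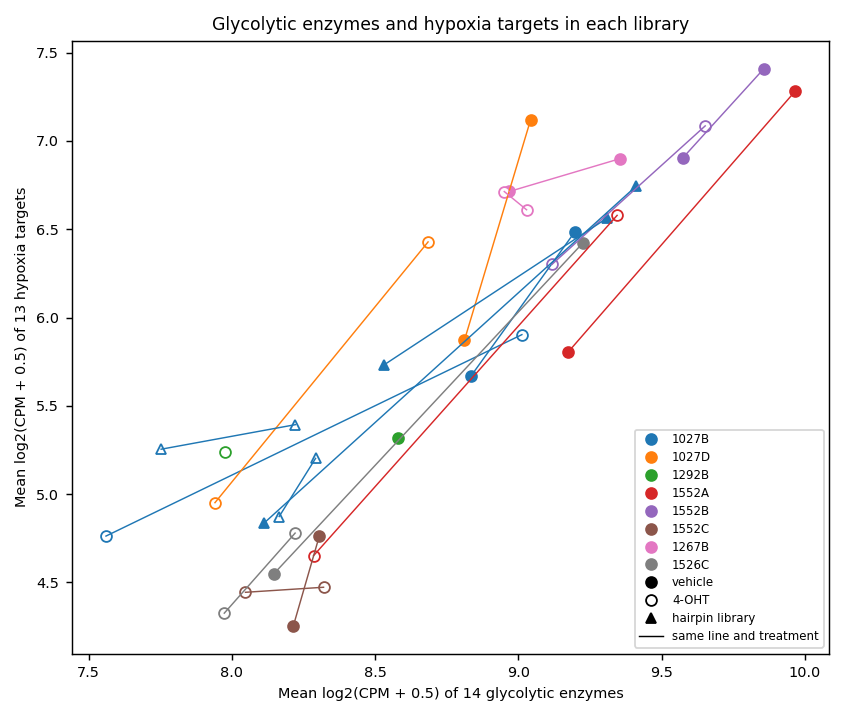
Mean log2(CPM + 0.5) of the 13 hypoxia targets against that of 14 glycolytic enzymes (all but Eno2), 1 point per library, coloured by line, filled for vehicle and open for 4-OHT, with triangles for hairpin libraries and lines joining libraries of the same line and treatment. Libraries of 1 line and treatment can lie far apart along the diagonal, and both means differ in the same direction in 17 of the 18 joined pairs.

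With loss of both genes, no member passed the main test with line as a block, and other fits called 0 to 15. Called means an edgeR quasi-likelihood adjusted p under 0.05, and 3.9% of the 15198 genes tested were called (592). None of the 36 members was called in the main edgeR fit. An unadjusted p under 0.05 was found for 11, all lower (30.6%, against 20.3% of all genes in either direction). DESeq2 called 3, Pfkp, Car12 and Pgk1 (8.33%, against 12.4% of all genes). With line and title number as a block 2 members were called, Eno1 and Pfkp (5.56%, against 11.7% of all genes). With counts summed per line 3 were called, Pfkp, Pgk1 and Slc16a3 (8.33%, against 3.45% of all genes). Without a filter on low counts edgeR called 15 (41.7%, against 8.01% of all genes). The fitted change was below 0 for 29 of 36 members (80.6%, against 47.8% of all genes), with a median of -0.36 against 0.02 over all genes. Of the glycolytic enzymes 13 of 15 were fitted lower (median -0.40), of the transport and control genes 3 of 6 (median 0.01) and of the hypoxia targets 11 of 13 (median -0.32). By line means the targets differed between lines. In 1292B, 7 of 13 were higher with 4-OHT (median 0.18), against 0 in 1027B (median -0.40) and 1 in 1027D (median -0.49). The enzymes were lower in 12 of 15 in 1292B (median -0.58), and its transport and control genes had a median of 0.37.

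Pgk1 had the smallest p among the members. In 1027B it was 664 and 339 CPM with vehicle and 111 and 315 with 4-OHT, in 1027D 479 and 363 against 132 and 235, and in 1292B 223 against 108. It was lower with 4-OHT in every matched pair, although the groups overlap, and the log2 change was -1.18 ± 0.32 (SE; adjusted p = 0.0786). Pfkp was 165 to 474 CPM with vehicle (median 327) and 38.4 to 205 CPM with 4-OHT (median 71.2), lower in each of the 5 pairs with overlapping groups, with a log2 change of -1.49 ± 0.43 (adjusted p = 0.0886). Its share of phosphofructokinase RPKM was 16.98% to 23.8% with vehicle and 5.14% to 14.97% with 4-OHT, ranges that do not overlap. Car12 was 0.265 to 23.8 CPM with vehicle and 0.113 to 4.31 CPM with 4-OHT (log2 change -2.20 ± 0.80, adjusted p = 0.163). Eno1, the main enolase, was 601 to 968 CPM with vehicle and 267 to 662 CPM with 4-OHT (log2 change -0.66 ± 0.24, adjusted p = 0.163).

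Slc16a3 differed between libraries of 1 line. It was 257 CPM with vehicle against 3.57 CPM with 4-OHT in replicate 1 of 1027B, but 245 and 158 CPM in replicate 4 of the same line. Over all double-floxed libraries its log2 change was -1.997 ± 0.85 (adjusted p = 0.231). Hif1a had a log2 change of -0.51 ± 0.20 (adjusted p = 0.194), Epas1 of -0.33 ± 0.29 (adjusted p = 0.608) and Vegfa of -0.42 ± 0.57 (adjusted p = 0.757), all fitted values that did not pass. The libraries of 1027B carry 2 different numbers before the X in their titles, and what the number marks is not stated. The difference between them was not tested. With 17699, 34 of 36 members were lower with 4-OHT (median -1.34), and with 17992, 8 were lower and 28 higher (median 0.34). In 1027D the medians were -0.63 with 17699 and -0.45 with 17992. Without the 4-OHT library of 1027B numbered 17699 the median of the members in the fit was -0.22, and without that numbered 17992 it was -0.67. In these fits 1 member was called, Car12 and Eno1 respectively (2.78% of members each, against 3.42% and 3.80% of all genes).

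In Foxa1-floxed organoids, 34 of 36 members were fitted lower with a median of -0.47, against 48.1% of all genes and a median of 0.01. No member was called in the main edgeR fit, where 0.0118% of 16887 genes were called (2 genes). Of the members, 2 had an unadjusted p under 0.05, both lower (5.56%, against 11.4% of all genes). DESeq2 called 0 (1.46% of all genes), and edgeR without a filter on low counts called 21 (58.3%, against 3.52% of all genes). All 15 glycolytic enzymes, all 6 transport and control genes and 11 of 13 hypoxia targets were fitted lower. Hif1a was 229 to 392 CPM with vehicle (median 303) and 157 to 318 CPM with 4-OHT (median 236). It was lower in each of the 6 pairs, which only title order sets, with overlapping groups (log2 change -0.34 ± 0.11, adjusted p = 0.281). Pfkfb4, which sets the level of the phosphofructokinase activator fructose 2,6-bisphosphate, had a log2 change of -0.48 ± 0.20 (adjusted p = 0.379). Pdk1, the kinase that shuts pyruvate out of the mitochondrial cycle, had a log2 change of -0.57 ± 0.28 (adjusted p = 0.458) and Pkm of -0.22 ± 0.11 (adjusted p = 0.468). Epas1 had a log2 change of -0.31 ± 0.19 (adjusted p = 0.553) and Vegfa of -0.59 ± 0.36 (adjusted p = 0.555). The median over members was -0.79 in line 1552A, -0.36 in 1552B and -0.09 in 1552C. Without 1552A the fitted median was -0.28, and without vehicle replicate 2 of that line it was -0.26 with 31 of 36 lower.

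In Foxa2-floxed organoids, 34 of 36 members were again fitted lower, with a median of -0.42, against 51.1% of all genes and a median of -0.01. No member was called in the main edgeR fit, where 3.43% of 16887 genes were called (580). Of the members, 5 had an unadjusted p under 0.05, all lower (13.9%, against 14.2% of all genes). DESeq2 called 2, Slc16a3 and Eno1 (5.56%, against 5.85% of all genes). The edgeR fit without a filter on low counts called 18 (50%, against 5.61% of all genes). Eno1 was 924 and 587 CPM with vehicle and 639 and 558 with 4-OHT in 1267B, and 1372 and 1954 against 915 and 1014 in 1526C (log2 change -0.56 ± 0.17, adjusted p = 0.0847). Slc16a3 was 181 and 230 CPM against 101 and 163 in 1267B, and 57.5 and 252 against 11.3 and 26.0 in 1526C (log2 change -1.83 ± 0.60, adjusted p = 0.122). Both genes were lower with 4-OHT in each of the 4 pairs while the groups overlap. Pgk1 had a log2 change of -0.82 ± 0.34 (adjusted p = 0.253), Pfkl, the liver-type phosphofructokinase, of -0.52 ± 0.22 (adjusted p = 0.280), Vegfa of -0.84 ± 0.46 (adjusted p = 0.452), Hif1a of -0.21 ± 0.14 (adjusted p = 0.575) and Epas1 of -0.11 ± 0.23 (adjusted p = 0.917). The members' median rests on 1 library. Without vehicle replicate 4, the high library of 1526C, it was -0.07 with 25 of 36 fitted lower. Eno1 was called without vehicle replicate 2 or 4-OHT replicate 1, both of 1267B, where 4.17% and 5.32% of all genes were called. The median was -0.76 in 1526C and -0.15 in 1267B, and within 1267B it was -0.28 in the libraries numbered 17699 and -0.04 in those numbered 17992.

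**Figure D3:**
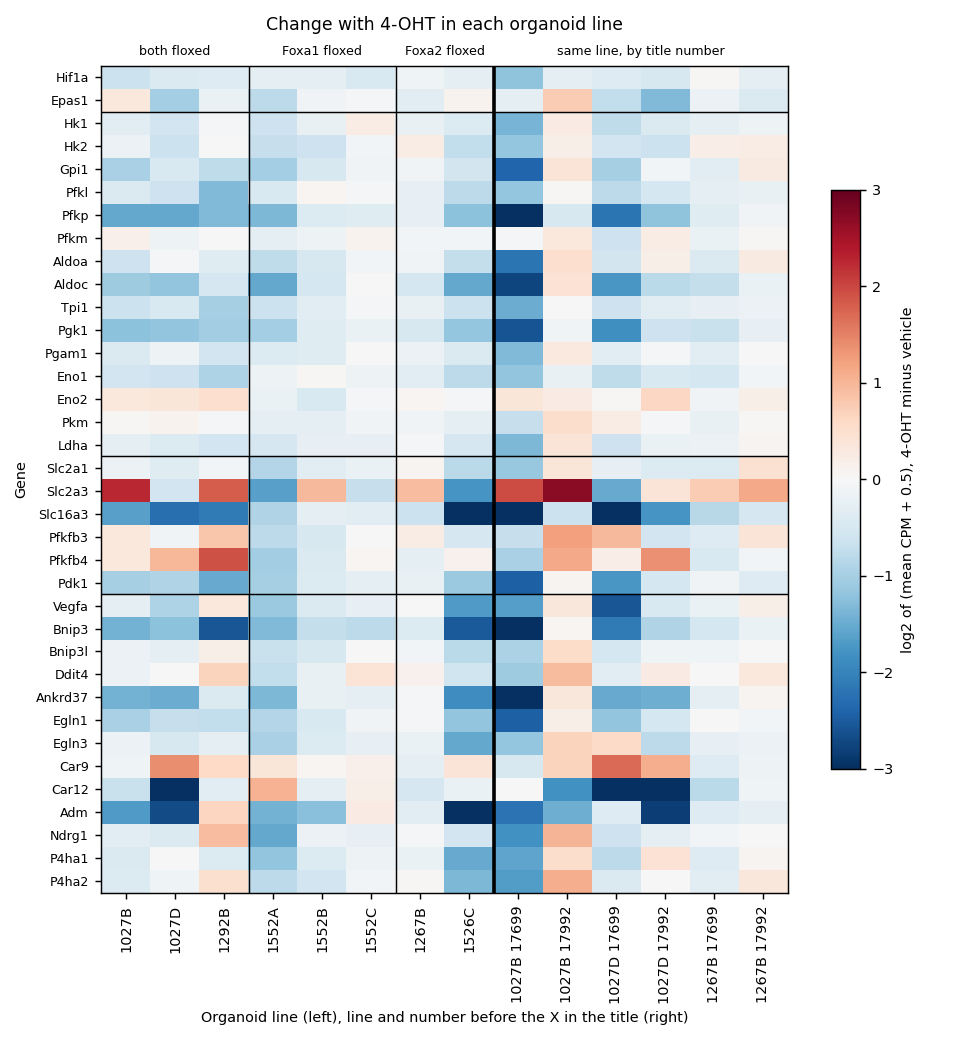
Heatmap of the change of the 36 members with 4-OHT, as log2 of mean CPM + 0.5 with 4-OHT minus vehicle, in each of the 8 lines (left of the thick line) and in lines 1027B, 1027D and 1267B divided by the number in the library titles (right). Blue predominates in all 8 lines, and 1027B changes from 34 of 36 members lower (17699) to 28 of 36 higher (17992).

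By the mean CPM of each line, 16 of 36 members (44.4%) were lower with 4-OHT in all 8 lines, against 3.95% of 14757 genes tested in both tables. Line means hide libraries that go the other way. Vehicle and 4-OHT libraries of 1 line were joined by replicate number into 15 pairs. Where repeat libraries of a line share a title number, only title order sets the pairs. None of the 36 was lower in all 15, and 0.834% of all genes were. This count does not set the members apart. Each of the 16 was higher with 4-OHT in at least 1 pair and lower in 11 to 14. They were the factor Hif1a, the enzymes Gpi1, Pfkp, Aldoa, Aldoc, Tpi1, Pgk1, Pgam1 and Ldha, the transport and control genes Slc16a3 and Pdk1, and the targets Bnip3, Ankrd37, Egln1, Egln3 and P4ha1. Egln1 and Egln3 encode prolyl hydroxylases that mark the factors for destruction, and P4ha1 a collagen prolyl hydroxylase. By line, the log2 difference of Bnip3 ranged from -2.57 in 1292B to -0.40 in 1267B. A further 6 members were lower in 7 lines. Pfkfb4 was lower in 3 lines and Car9 in 2.

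The difference between genotypes was tested on counts summed per line. No member's 4-OHT effect differed between double-floxed and Foxa1-floxed organoids with edgeR (1.54% of 19085 genes called), where 8 members had an unadjusted p under 0.05 (22.2%, against 17.8% of all genes) and DESeq2 called 3, Car12, Eno1 and Pfkfb4 (8.33%, against 7.56% of all genes). The smallest p belonged to Pfkfb4, with a difference of 1.61 ± 0.41 (adjusted p = 0.0994), followed by Eno1 at -0.64 ± 0.17 (adjusted p = 0.115), Eno2 at 1.64 ± 0.53 (adjusted p = 0.168) and Car12 at -2.61 ± 0.87 (adjusted p = 0.174). Between double-floxed and Foxa2-floxed organoids no member was called (0.194% of all genes), 1 had an unadjusted p under 0.05 (2.78%, against 8.91% of all genes) and DESeq2 called 0 (1.86% of all genes). Its smallest p was again that of Pfkfb4, at 1.20 ± 0.45 (adjusted p = 0.483). Between Foxa2-floxed and Foxa1-floxed organoids edgeR called 0% of all genes, 1 member had an unadjusted p under 0.05 (2.78%, against 3.84% of all genes), which was Eno1 at -0.48 ± 0.19 (adjusted p = 1), and DESeq2 called 0 members (0.0996% of all genes). In all 3 tests the differences for Hif1a lay between -0.30 and 0.11, those for Epas1 between -0.25 and 0.18 and those for Vegfa between -0.28 and 0.59.

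In the hairpin experiment 3 members were called in each hairpin, and the same 3: Epas1 rose with 4-OHT, and Slc16a3, the lactate exporter, and Vegfa fell. These were 3 of 35 members tested with shScramble, where 4.33% of 14465 genes were called, and 3 of 35 with shNKX2-1, where 6.35% were called. Fitted changes were below 0 for 28 of 35 members with shScramble (median -0.81) and 30 of 35 with shNKX2-1 (median -1.06), against 47.8% and 48.8% of all genes and medians of 0.02. Eno2 was too low to be tested. With shScramble 12 of 14 enzymes, 5 of 6 transport and control genes and 11 of 13 targets were fitted lower, and with shNKX2-1 13, 6 and 11.

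Epas1 was 0.295 and 0.270 CPM in the shScramble vehicle libraries and 21.0 and 23.7 CPM in the shScramble 4-OHT libraries. The groups are far apart, and the log2 change was 6.26 ± 0.43 (adjusted p = 0.000579). With shNKX2-1 it was 2.56 and 1.44 CPM with vehicle and 20.8 and 19.9 CPM with 4-OHT (log2 change 3.35 ± 0.35, adjusted p = 0.00219). Line 1027B without a hairpin had 5.11 and 4.99 CPM with vehicle and 4.06 and 8.76 CPM with 4-OHT, so the hairpin libraries lay below it with vehicle and above it with 4-OHT (tables scaled separately). Hif1a was 108 and 120 CPM with vehicle and 171 and 160 with 4-OHT in shScramble (log2 change 0.53 ± 0.32, adjusted p = 0.524). In shNKX2-1 it was 102 and 120 CPM with vehicle and 173 and 355 CPM with 4-OHT (log2 change 1.25 ± 0.33, adjusted p = 0.0640), where the high value is from the library with many mitochondrial counts. Without that library the change was 0.63 (adjusted p = 0.0704).

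Slc16a3 was 26.4 and 140 CPM in the shScramble vehicle libraries and 3.98 and 4.20 CPM with 4-OHT, a log2 change of -4.35 ± 0.92 (adjusted p = 0.0371). With shNKX2-1 it was 66.0 and 167 CPM with vehicle and 4.53 and 1.06 CPM with 4-OHT, a log2 change of -5.35 ± 0.97 (adjusted p = 0.0179). The 4 libraries with 4-OHT were all below the 4 with vehicle. Without the second shNKX2-1 4-OHT library the latter was -4.69 (adjusted p = 0.0554), and without the second shScramble vehicle library the former was -2.73 (adjusted p = 0.227). Vegfa was 483 and 937 CPM with vehicle and 223 and 188 with 4-OHT in shScramble (log2 change -1.79 ± 0.38, adjusted p = 0.0378). In shNKX2-1 it was 660 and 672 CPM with vehicle and 228 and 129 with 4-OHT (log2 change -1.90 ± 0.38, adjusted p = 0.0259), and -1.55 (adjusted p = 0.0517) without the second 4-OHT library.

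Among members that did not pass, Ankrd37, an ankyrin repeat protein induced by hypoxia, was 10.8 and 61.9 CPM with vehicle against 4.04 and 7.04 CPM with 4-OHT in shScramble (log2 change -2.71 ± 0.74, adjusted p = 0.0944). Slc2a3 was 53.9 and 15.3 CPM with vehicle against 2.98 and 6.55 CPM with 4-OHT in shNKX2-1 (log2 change -2.87 ± 0.74, adjusted p = 0.0623), and the change was -3.53 (adjusted p = 0.0856) without the second 4-OHT library. Adm had 0 counts in all 4 hairpin libraries with 4-OHT and was at least 17.4-fold lower with shScramble and at least 11.8-fold lower with shNKX2-1, taking 3 counts per group as the limit that a count of 0 allows. Its adjusted p was 0.235 and 0.188. This limit covers counting error only, and most of the 52 (shScramble) and 39 (shNKX2-1) vehicle counts came from the second vehicle library. Adm was 0.0728 and 2.09 RPKM in the shScramble vehicle libraries and 0.226 and 1.31 RPKM in those of shNKX2-1. The median over members with shScramble rests on the second vehicle library: without it, 15 of 35 members were fitted lower and the median was 0.11. With shNKX2-1 the median was -0.64, with 28 of 35 lower, without the second 4-OHT library, and -0.59, with 25 lower, without the second vehicle library. With shScramble, Epas1 was the 1 member still called without the second vehicle library (Vegfa -1.28, adjusted p = 0.254), without either shScramble 4-OHT library, or without either shNKX2-1 vehicle library. With shNKX2-1, it was the 1 member still called without the second shNKX2-1 vehicle or 4-OHT library, while 10 members were called without the first shNKX2-1 4-OHT library (28.6%, against 45.6% of all genes). Vegfa also lost its shNKX2-1 call without the first shNKX2-1 vehicle library or either shScramble 4-OHT library.

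**Figure D4:**
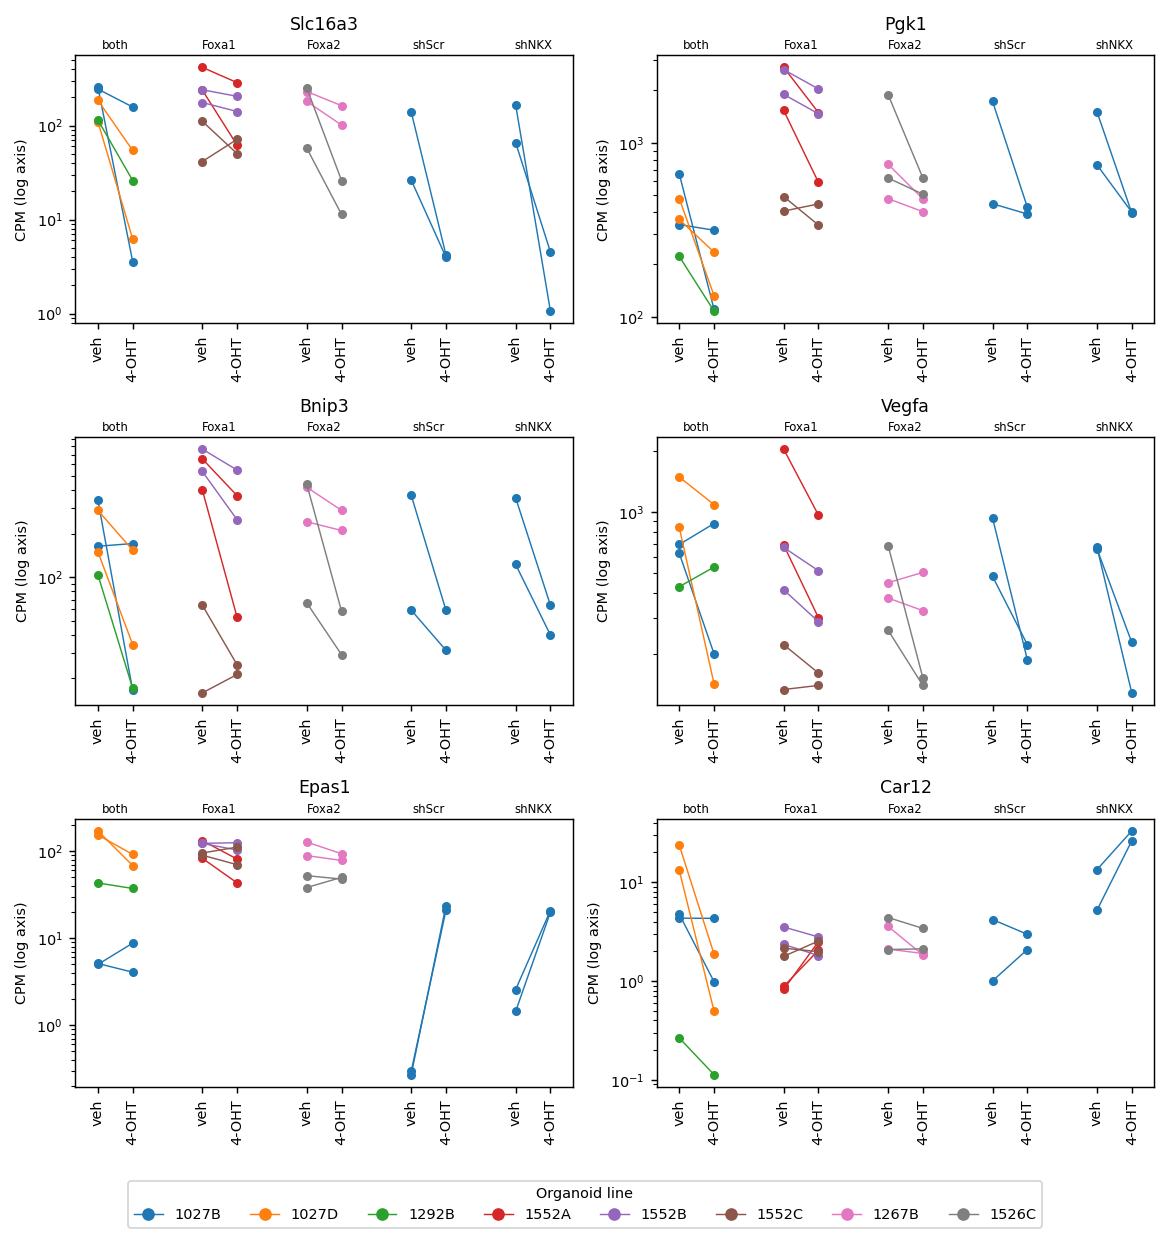
CPM on a log axis of Slc16a3, Pgk1, Bnip3, Vegfa, Epas1 and Car12 in every library, with lines joining the vehicle and 4-OHT library of 1 line and replicate number, coloured by line and arranged by genotype or hairpin. In the hairpin libraries Epas1 lies at 0.270 to 2.56 CPM with vehicle and at 19.9 to 23.7 CPM with 4-OHT, and Slc16a3 at 26.4 to 167 CPM with vehicle and 1.06 to 4.53 CPM with 4-OHT.

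The Nkx2-1 hairpin was compared with the scrambled one within each treatment. Nkx2-1 itself was 424 and 428 CPM with shScramble and 350 and 280 with shNKX2-1 in vehicle libraries, and 359 and 408 against 181 and 207 CPM with 4-OHT. It was lower with the hairpin in both treatments but was not called (log2 differences of -0.44 ± 0.22, adjusted p = 0.755, and -0.98 ± 0.22, adjusted p = 0.0763), so the directions below are those of the libraries labelled shNKX2-1. Without the second shNKX2-1 4-OHT library the latter was -1.08 (adjusted p = 0.0422). With vehicle no member was called with edgeR (0.235% of all genes called), 2 had an unadjusted p under 0.05, both higher (5.71%, against 7.76% of all genes), and DESeq2 called 1, Epas1 (2.86%, against 284 of 14465 genes). Epas1 had the smallest p, with a log2 difference of 2.78 ± 0.44 (adjusted p = 0.0661), followed by Car12 at 1.85 ± 0.66 (adjusted p = 0.479), Egln3 at 1.38 ± 0.68 (adjusted p = 0.751) and Car9 at -1.06 ± 0.72 (adjusted p = 0.943). Hif1a differed by -0.04 ± 0.32 and Vegfa by -0.09 ± 0.37, both with an adjusted p of 1. The members' median was 0.05 with 17 of 35 lower, but 0.90 with 1 of 35 lower without the second shScramble vehicle library and -0.40 with 28 lower without the first. Epas1 was called without either shNKX2-1 4-OHT library.

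With 4-OHT, Car12 was the 1 member called of 35, where 1.58% of all genes were called (228). It was 26.3 and 33.1 CPM with shNKX2-1 against 2.08 and 2.97 CPM with shScramble, groups that do not overlap (log2 difference 3.55 ± 0.68, adjusted p = 0.0475). Without the second shNKX2-1 4-OHT library the difference was 3.38 (adjusted p = 0.0711), and the call was also lost without either shScramble 4-OHT library, either shNKX2-1 vehicle library or the second shScramble vehicle library. Pfkfb4 was 6.97 and 3.27 CPM with shNKX2-1 against 18.1 and 14.3 with shScramble (log2 difference -1.65 ± 0.38, adjusted p = 0.0876), Slc2a3 differed by -2.19 ± 0.73 (adjusted p = 0.231) and Ldha by -0.98 ± 0.36 (adjusted p = 0.283). Without the second shNKX2-1 4-OHT library these were -1.21 (Pfkfb4, adjusted p = 0.0760), -2.85 (Slc2a3, adjusted p = 0.255) and -0.95 (Ldha, adjusted p = 0.375). Hif1a differed by 0.68 ± 0.32 (adjusted p = 0.401), or by 0.06 (adjusted p = 0.918) without that library, Epas1 by -0.14 ± 0.31 (adjusted p = 0.840) and Vegfa by -0.20 ± 0.37 (adjusted p = 0.806). The 4-OHT effect itself did not pass as different between the hairpins for any member or any gene (0% of all genes called with edgeR), with 2 members at an unadjusted p under 0.05 (5.71%, against 5.41% of all genes) and 1, Epas1, called by DESeq2 (2.86%, against 0.615% of all genes). The smallest p were those of Epas1, at -2.91 ± 0.54 (adjusted p = 0.348), Pfkfb4, at -1.81 ± 0.53 (adjusted p = 0.686), Slc2a3, at -1.93 ± 0.98, and Car12, at 1.70 ± 0.91 (both adjusted p = 0.866). Without the first shNKX2-1 4-OHT library, which leaves the one with many mitochondrial counts, 4 members were called between hairpins with 4-OHT (11.4%, against 37.8% of all genes) and 3 for the difference of the effect (8.57%, against 23.3%), Hif1a among both. These comparisons share libraries with the ones above and are not independent of them.

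Genes of the same pathways outside the 36 were tested from 4 further lists, and called genes are named, up to 4 per list and comparison. For factor control and the stress response, calls are stated for the 5 comparisons of 4-OHT with vehicle. Of 19 other hypoxia targets tested in double-floxed organoids none was called (3.9% of all genes) and 17 were fitted lower (median -0.93), against 47.8% of all genes. In Foxa2-floxed organoids all 19 were fitted lower (median -0.71), with the share of all genes given above. Stc2, a secreted glycoprotein hormone, was called there (log2 change -2.77, adjusted p = 0.0476), as were 3.43% of all genes. The 36 members' median there was -0.07 without vehicle replicate 4. That of these 19 without it is not given. Mxi1, a Myc antagonist, fell in both hairpins (by 1.68 and 2.16 on the log2 scale, adjusted p = 0.0359 and 0.0123), and Stc2 fell with shNKX2-1 by 3.92 (adjusted p = 0.0478). Among other genes of glucose metabolism, 10 of 19 were fitted lower in double-floxed organoids (52.6%, against 47.8% of all genes; median -0.09). Hkdc1, a hexokinase-like enzyme, fell by 3.46 with shScramble and 2.32 with shNKX2-1 (adjusted p = 0.00254 and 0.00765) and Pklr, the liver pyruvate kinase, by 4.23 and 2.92 (adjusted p = 0.00270 and 0.00765). Fbp2, a gluconeogenic phosphatase, fell by 1.81 with shNKX2-1 (adjusted p = 0.0267), and Hkdc1 was higher with shNKX2-1 than with shScramble under 4-OHT by 2.63 (adjusted p = 0.0206). Without the second shNKX2-1 4-OHT library the shNKX2-1 calls of Stc2 (-3.17, adjusted p = 0.0817) and Fbp2 (-1.57, adjusted p = 0.0586) were lost. Those of Mxi1 (-1.90, adjusted p = 0.0263), Hkdc1 (-2.07, adjusted p = 0.0101) and Pklr (-2.42, adjusted p = 0.00292) stood, as did that of Hkdc1 between hairpins (2.89, adjusted p = 0.00843). Ldhb, the other lactate dehydrogenase subunit, rose in Foxa2-floxed organoids by 3.91 (adjusted p = 0.00181), from 0.310 to 0.646 CPM with vehicle to 1.73 to 10.95 CPM with 4-OHT. Of 6 or 7 further genes of factor control, none was called in the 5 comparisons of 4-OHT with vehicle. Of 10 genes of the integrated stress response, the cystine transporter Slc7a11 fell in double-floxed organoids by 1.52 (adjusted p = 0.0415), and no other was called in those comparisons.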

How the data were processed

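Gene counts from 38 bulk libraries were deposited by the authors as raw counts in 3 tables. Per the submitters' processing notes, the tools were STAR 2.7.6a, featureCounts 1.5.1 and DESeq2 with build GRCm38. The annotation release, strand setting and treatment of reads with several matches are not stated there, so genes that share exons with another gene (Hif1a, Gpi1, Pfkp, Bnip3, Ankrd37, Car9, Ndrg1, Pkm and Pklr among them) are uncertain by those reads. Symbols and exon lengths came from GENCODE M21 (GRCm38), and 99.4% or more of the IDs matched in each table. Aldoa, and Ddit3 of the stress response list, each matched 2 IDs. The first ID in order was kept, so counts of the other are not in the values given.

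Each table was filtered with filterByExpr, scaled by TMM and fitted with edgeR 4.0.16 (quasi-likelihood test, Benjamini-Hochberg adjustment over all genes tested, threshold 0.05) in R 4.3.3, with organoid line as a block. Foxa1-floxed and Foxa2-floxed libraries shared 1 fit. Hairpin libraries were fitted together without a block. Differences between genotypes used counts summed per line. Mean log2 values used a pseudocount of 0.5 CPM. The tables were scaled separately. DESeq2 1.42.0, RLE scaling, no filter, other blocks and leaving out libraries or lines were tried. Code was tested on simulated data. Vehicle and 4-OHT libraries come from the same line, and deviations of a line from the group means correlated across treatments at 0.800 to 0.939. With only 2 Foxa2-floxed lines, centring gives both the same value.

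The 36 genes and all lists were chosen with earlier results of these data known. Named in each comparison were all members called, those with the smallest p up to 4, and always Hif1a, Epas1 and Vegfa. Called genes of the other pathway lists were named, up to 4 per list.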

Additional observations from a re-analysis of the deposited data

Results flagged for a closer look

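Of 216 gene and group combinations with 4 to 6 libraries, 14 had 1 library far from the others (a gap to its nearest neighbour that took most of the group's range). At the 95% critical value used, chance marks about 1 in 20 groups of like libraries, and these groups mix lines. All values are CPM. In double-floxed vehicle libraries, replicate 1 was high for Gpi1 (1528.16) and Aldoc (162.508), replicate 3, the library of line 1292B, for Slc2a3 (114.994), and replicate 5 for Egln3 (522.021) and Adm (26.8896). In double-floxed 4-OHT libraries, replicate 4 was high for Aldoc (83.5086) and replicate 3 for Slc2a3 (403.75). In Foxa2-floxed vehicle libraries, replicate 3 was low for Hk1 (181.979) and Pfkl (240.507). In Foxa2-floxed 4-OHT libraries, replicate 2 was high for Eno2 (0.684386) and Pfkfb3 (251.45). In Foxa1-floxed libraries, vehicle replicate 2 was high for Hk2 (535.567) and Vegfa (2044.21), and 4-OHT replicate 4 for Adm (49.5774).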

How the results depend on the processing

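Members called (main count first) moved as follows, and the cause was not tested. Percentages in brackets are the share of all genes tested that the same fit called. With DESeq2 the counts went from 0 to 3 (double-floxed, 12.4%), 0 to 2 (Foxa2-floxed, 5.85%), 3 to 6 (shScramble, 7.55%), 3 to 15 (shNKX2-1, 12.3%), 0 to 1 (shNKX2-1 against shScramble, vehicle, 284 of 14465 genes), 1 to 3 (the same with 4-OHT, 4.87%), 0 to 1 (difference of the 4-OHT effect between hairpins, 0.615%) and 0 to 3 (double-floxed against Foxa1-floxed effect, 7.56%). Without a filter on low counts they were 15 (double-floxed, 8.01%), 21 (Foxa1-floxed, 3.52%), 18 (Foxa2-floxed, 5.61%), 16 (shScramble, 5.48%), 21 (shNKX2-1, 9.80%), 3 and 5 (between hairpins with vehicle, 1.84%, and 4-OHT, 4.22%), 2 (difference between hairpins, 0.906%) and 1 (double-floxed against Foxa1-floxed effect, 1.86%). In double-floxed organoids, counts summed per line with line as replicate block gave 3 (Pfkp, Pgk1 and Slc16a3, 3.45%), line and title number as replicate block gave 2 (Eno1 and Pfkp, 11.7%), and no replicate block gave 0 (0.613%). The block changed no other count of members called. Leaving out line 1267B, an alternative chosen after seeing the data, gave 2 in Foxa2-floxed organoids (6.30%). Leaving out 1 library at a time gave 0 to 1 (double-floxed), 0 (Foxa1-floxed), 0 to 1 (Foxa2-floxed), 1 to 4 (shScramble), 1 to 10 (shNKX2-1), 0 to 1 and 0 to 4 (between hairpins with vehicle and 4-OHT) and 0 to 3 (difference between hairpins). The counts of 10, 4 and 3 come from the fit without the first shNKX2-1 4-OHT library, which called 45.6%, 37.8% and 23.3% of all genes. Where this left 1 library in an arm, it was assumed to vary like the other groups. RLE scaling changed no count, and no log2 change of a called member reversed. The members' median did change sign in some fits, for example with shScramble to 0.11 without the second vehicle library. Of 11 alternatives, Epas1 kept its call in 11 with each hairpin, Slc16a3 in 6 (shScramble) and 9 (shNKX2-1), Vegfa in 6 with each, and Car12 in 5. Genes with few counts in some groups (Adm, Eno2, and Epas1 in the shScramble vehicle libraries) are limited by depth.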
